A study of Mus musculus with 18 samples.

Results

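Transcripts of 10 genes of the circadian clock and its first output genes were measured in the livers of 5 control and 5 hypothyroid mouse pups on 2-colour oligonucleotide arrays. The genes were Arntl, Clock, Per1, Per2, Per3, Cry1, Nr1d1, Nr1d2, Dbp and Tef, found by the RefSeq accession of each probe, and they were read by 18 of the 41174 probes, or 10 of the 16535 genes named on the array. The pups were male C57BL/6 mice at postnatal day (PND) 15, taken 1 per litter, and all dams drank water with 1% sugar. Dams of the hypothyroid group also received 0.05% MMI (methimazole, which blocks thyroid hormone synthesis) and 1% perchlorate (which blocks iodide uptake by the thyroid) from PND 12, so that the pups were exposed through the dam or her water and only for a short time. The paper states that pups of both the control and the hypothyroid group were injected with PBS some hours before sacrifice. Mice were kept in a cycle of equal light and dark hours, and the time of day at which the livers were taken is not given in the sources used here. Each liver RNA was hybridised against a purchased universal mouse reference RNA, and every value below is a log2 ratio of liver to reference, which compares a probe between animals and not 1 gene with another.

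The clock is a feedback loop that runs in nearly every cell. ARNTL (also called BMAL1) and CLOCK bind E-boxes, short DNA motifs, and switch on the Per and Cry genes, whose proteins return to the nucleus and shut ARNTL and CLOCK off. A second loop is closed by the nuclear receptors NR1D1 and NR1D2 (REV-ERB), which repress Arntl through ROR elements and compete there with ROR activators, while the PAR bZIP factors DBP and TEF carry the rhythm to liver enzymes through D-boxes. In adult mouse liver Arntl, Clock and Cry1 peak in the night and around dawn, and Nr1d1, Dbp and their partners peak in the day and around dusk, so that a liver taken at an earlier or later phase has more of one group and less of the other.

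The motifs that tie these genes into 1 loop are shown here because the array-to-array results below turn on Arntl, Cry1 and Nr1d1. In the RefSeq promoters of GRCm38.p6, which run from 250 bases before to 50 bases after a start, 9 of the 10 genes had an entry (Per2 had none) and 6 held at least 1 match. Capitals mark the motif, each sequence is given 5' to 3' on the strand of the gene, and the number of bases is counted from the start of transcription.
Arntl, ROR element, 30 bases after a start, chr7:113207530-113207558 (+): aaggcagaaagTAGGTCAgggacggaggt
Cry1, E-box, 60 bases before, chr10:85185098-85185125 (-): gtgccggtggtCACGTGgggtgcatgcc
Nr1d1, E'-box on the opposite strand, 28 bases before, chr11:98775389-98775416 (-): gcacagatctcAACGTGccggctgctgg
Per1, E-box, 166 bases before, chr11:69098772-69098799 (+): gcacccaagtcCACGTGcagggatgtgt
The E-box was searched as CACGTG, the E'-box as CACGTT, the ROR element as TAGGTCA and the D-box as TTATGTAA or TTACGTAA, all on both strands. Of 32851 promoters of the same length, 7.15% held the E-box, 4.68% the E'-box, 2.61% the ROR element and 1.06% the D-box. The other matches were an E'-box in Cry1, an E-box in each of 2 Tef promoters and 2 D-boxes in Per3. A match describes the letters and not a site in use.

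Several arrays stood apart and bear on what follows. Control 832 and hypothyroid 576, which share slide 141, ran opposite to the other slides with the dyes as labelled (r = -0.974 and -0.978), so their channels were exchanged. Control 616 had the lowest correlation with the arrays of other slides (r = 0.882, against 0.974 to 0.988) and a compressed spread of its log2 ratios (SD 0.73, against 1.01 or more). The fraction of probes above the background limit was between 75.9% and 85.4% per array. Of 3 genes known to follow thyroid hormone, Me1 (malic enzyme) was lower in all hypothyroid than in all control livers, with a change of -0.48 (SE 0.11, limma adjusted p = 0.274), and Thrsp and Dio1 had changes of -1.16 (SE 0.30, adjusted p = 0.347) and -0.94 (SE 0.34, adjusted p = 0.604). Thus limma with Benjamini-Hochberg adjustment passed none of these 3, and it passed 2 of the 32057 probes tested, or 0.00624%.

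None of the 10 clock genes and none of the 18 probes passed an adjusted p of 0.05 between hypothyroid and control livers. At an unadjusted p below 0.05, 1 of the 10 genes (Per2) was called by its brightest probe, where 7.42% of all probes tested were called (3.34% higher and 4.08% lower in hypothyroid liver). No clock probe separated the groups without overlap, as 2.07% of all probes did. Of the brightest probes, 5 were higher and 5 lower in hypothyroid liver, with a median change of -0.02. The median size of the change without regard to sign was 0.22 for the clock genes and 0.10 for all genes tested, and the median SD within groups was 0.27 and 0.18. All 18 probes passed the filter on low signals, so every gene could be tested.

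**Figure D1:**
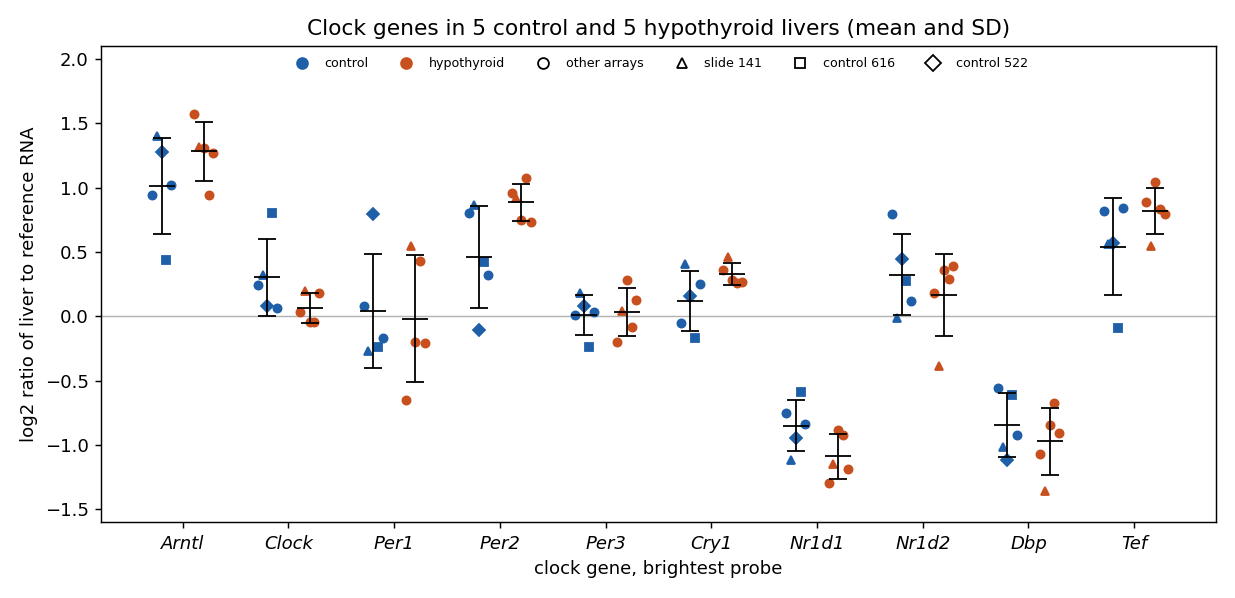
Log2 ratio of liver to reference RNA (vertical axis) for the brightest probe of each of the 10 clock genes (horizontal axis) in 5 control (blue) and 5 hypothyroid (orange) livers, with the mean and SD of each group in black. The 2 groups overlap for every gene, and control 616 (square) is the lowest array for Arntl and Tef and the highest for Clock.

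Arntl encodes the activator that every other arm of the loop depends on. Its probe read 0.94, 1.40, 1.28, 0.44 and 1.02 in the control livers 881, 832, 522, 616 and 391, and 1.57, 1.32, 1.30, 0.94 and 1.27 in the hypothyroid livers 891, 576, 311, 723 and 626. (The animals are given in this order from here on.) Control 616 was the lowest and hypothyroid 891 the highest, a 2.20-fold range over the 10 livers, and the groups overlapped. The mean was 1.02 ± 0.37 in control and 1.28 ± 0.23 in hypothyroid liver (SD, n = 5 each), a change of 0.27 (SE 0.17) with a limma adjusted p of 0.737. This corresponds to a ratio of 1.20 with a 95% interval from 0.922 to 1.57. Without control 616 the change was 0.12.

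Clock, the partner of Arntl, was read by 3 probes. The brightest gave 0.24, 0.32, 0.08, 0.80 and 0.07 in control and 0.03, 0.20, -0.04, -0.05 and 0.18 in hypothyroid liver. Here control 616 was far above every other array, and the remaining arrays of the groups overlapped. The change was -0.24 (SE 0.13, adjusted p = 0.721), and the other probes gave changes of -0.09 and -0.12. All 3 Clock probes thus had the same sign, and none passed the test. Without control 616 the change of the brightest probe was -0.11.

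Among the repressors, Per2 had the largest change of the 10 genes. Its brighter probe read 0.81, 0.86, -0.11, 0.42 and 0.32 in control and 0.96, 0.92, 0.75, 1.07 and 0.74 in hypothyroid liver. Control 522 was the lowest, and only the controls 881 and 832 reached the range of the hypothyroid livers. The mean was 0.46 ± 0.39 in control and 0.89 ± 0.14 in hypothyroid liver, a change of 0.43 (SE 0.17; limma unadjusted p = 0.0279, adjusted p = 0.629) or a ratio of 1.34 with a 95% interval from 1.04 to 1.73. The dimmer Per2 probe did not follow it. It read 0.77, 0.43, 0.79, 0.65 and 0.60 in control and 0.49, 0.31, 0.74, 0.39 and 0.64 in hypothyroid liver, a change of -0.14 (SE 0.10, adjusted p = 0.760), and the 2 probes correlated at r = -0.629 over the 10 arrays. With the 2 probes averaged to 1 value the change was 0.14, so no direction is given for Per2 as a gene. Without control 522 the change of the brighter probe was 0.28 (limma unadjusted p = 0.0530), and without control 391 or hypothyroid 891, 576 or 723 its unadjusted p was also above 0.05, at 0.0509 to 0.0652.

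Per1, which responds quickly to hormones and stress as well as to the clock, varied most. It read 0.08, -0.27, 0.79, -0.24 and -0.17 in control and -0.65, 0.54, -0.20, 0.43 and -0.21 in hypothyroid liver. Livers with high Per1 were found in each group (control 522, hypothyroid 576 and hypothyroid 723), and the lowest was hypothyroid 891, a 2.72-fold range. The SD within groups, 0.47, was larger than that of 95.8% of all probes tested. The group means differed by -0.06 (SE 0.26, adjusted p = 0.968), and the 95% interval of the ratio ran from 0.647 to 1.43.

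Per3, whose protein is not needed for the loop to run, lay close to the reference on every array. It read 0.01, 0.18, 0.08, -0.24 and 0.03 in control and -0.20, 0.04, 0.28, -0.08 and 0.13 in hypothyroid liver. The change was 0.02 (SE 0.10, adjusted p = 0.970) with a ratio of 1.01 (95% interval 0.865 to 1.19).

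Cry1, the strongest repressor of ARNTL and CLOCK, was read by 2 dim probes. The brighter gave -0.05, 0.41, 0.16, -0.17 and 0.25 in control and 0.36, 0.46, 0.28, 0.26 and 0.27 in hypothyroid liver. The hypothyroid livers lay close together and above 4 of the 5 controls, with control 832 among them. The change was 0.21 (SE 0.11, adjusted p = 0.707) and a ratio of 1.16 (95% interval 0.983 to 1.36). Without control 616 the change was 0.14. The dimmer probe gave 0.14 (SE 0.08, adjusted p = 0.728), and the scanner software marked it well above background on only 3 control and 4 hypothyroid arrays.

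Nr1d1 was read by 3 probes. The brightest gave -0.75, -1.12, -0.95, -0.59 and -0.84 in control and -1.29, -1.15, -0.89, -0.92 and -1.19 in hypothyroid liver. Its lowest values were those of hypothyroid 891 and 626 and its highest that of control 616. The change was -0.24 (SE 0.11, unadjusted p = 0.0582, adjusted p = 0.681), or a ratio of 0.848 (95% interval 0.714 to 1.01).

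The other Nr1d1 probes did not show this difference. Their changes were 0.03 (SE 0.14) and -0.05 (SE 0.14), and they correlated with each other (r = 0.903) more than with the brightest probe (r = 0.253 and 0.427). On these 2 probes the arrays of slide 141 were the lowest, at -0.10 and -0.06 on the brighter and -0.32 and -0.12 on the dimmer, where all other arrays were between 0.17 and 0.54 and between -0.11 and 0.40. In RefSeq the Nr1d1 gene overlaps Thra, the gene of thyroid hormone receptor alpha, and where in Nr1d1 each probe lies was not analysed here.

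Nr1d2, the close relative of Nr1d1, read 0.79, -0.02, 0.44, 0.27 and 0.12 in control and 0.18, -0.39, 0.36, 0.29 and 0.39 in hypothyroid liver. The arrays of slide 141 were again the 2 lowest and control 881 the highest, a 2.27-fold range. The change was -0.16 (SE 0.18, adjusted p = 0.834), with a ratio of 0.897 (95% interval 0.684 to 1.18), and it was -0.02 without hypothyroid 576 and -0.04 without control 881.

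Dbp, whose transcript has one of the widest daily swings in adult liver, read -0.56, -1.02, -1.11, -0.61 and -0.92 in control and -1.07, -1.36, -0.84, -0.67 and -0.91 in hypothyroid liver. High and low livers were found in each group, with control 881 the highest and hypothyroid 576 the lowest, and the range was 1.74-fold. The change was -0.13 (SE 0.15, adjusted p = 0.837), or a ratio of 0.917 (95% interval 0.735 to 1.14). It was -0.03 without hypothyroid 576, -0.05 without control 881 and -0.07 without control 616.

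Tef, from the same family as Dbp, was read by 3 probes. The brightest gave 0.82, 0.56, 0.57, -0.09 and 0.84 in control and 0.89, 0.55, 1.04, 0.83 and 0.79 in hypothyroid liver. Control 616 was far below every other array, and the arrays of slide 141 came next. The change was 0.28 (SE 0.17, adjusted p = 0.730), while the other probes gave -0.04 and -0.02. Without control 616 the change of the brightest probe was 0.12, and the other 9 arrays spanned 0.55 to 1.04.

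**Figure D2:**
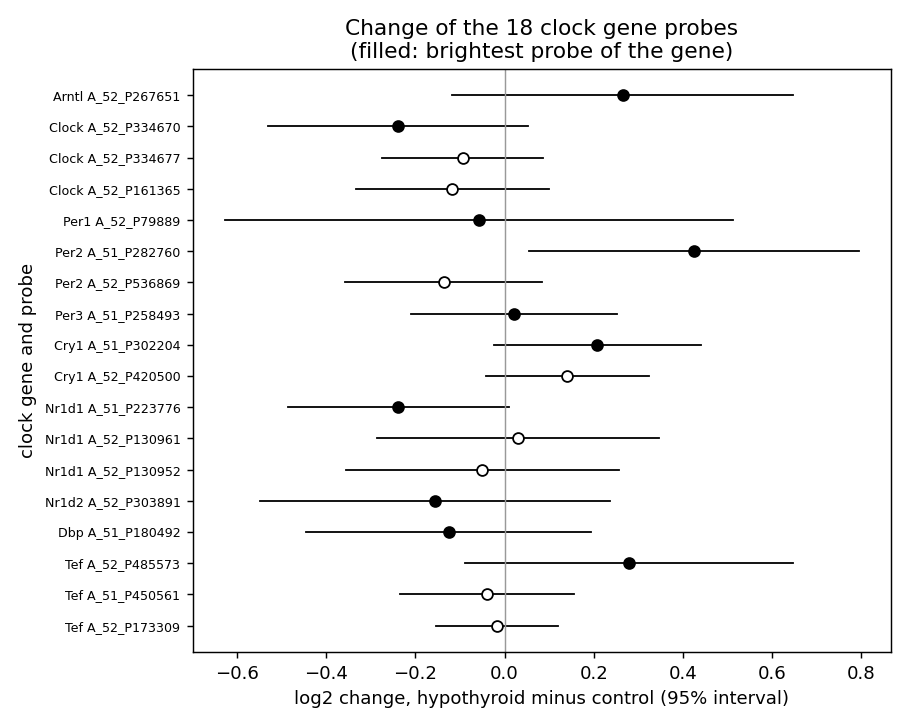
Log2 change of each of the 18 clock gene probes (horizontal axis, hypothyroid minus control, limma estimate with its 95% interval), with the brightest probe of each gene filled. Of the 18 intervals, that of the brighter Per2 probe is the one that does not include 0, and the probes of Per2, Nr1d1 and Tef differ from each other in sign.

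Slides were a possible batch, and 4 of the 6 held both groups. By the brightest probes, Per2 and Cry1 were higher in the hypothyroid than in the control liver on all 4 slides (by 0.06 to 0.85 and by 0.06 to 0.44), and Clock was lower on all 4 (by -0.62 to -0.12). The dimmer Per2 probe went the other way and was lower in the hypothyroid liver on all 4. The dimmer Cry1 probe was lower in hypothyroid liver on slide 136 (0.04 against 0.10 in control). The next brightest Clock probe was higher on slide 139 (-0.02 against -0.15) and the dimmest on slide 141 (-0.09 against -0.18). On the other slides these Cry1 and Clock probes went the way of the brightest. Each of the other 7 genes went in different directions on different slides. Per1 had the widest span, from -0.996 on slide 136 to 0.82 on slide 141. As 4 slides are too few for an exact sign test to pass 0.05, these are given as values.

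The second question was whether the livers differed among themselves in clock phase. A contrast was formed on each array as the mean log2 ratio of 7 genes of the day and dusk (Nr1d1, Nr1d2, Dbp, Tef, Per1, Per2, Per3) minus the mean of 3 genes of the night and dawn (Arntl, Clock, Cry1). It was -0.21, -0.83, -0.55, -0.51 and -0.53 in control and -0.83, -0.78, -0.44, -0.25 and -0.61 in hypothyroid liver. The most negative values were those of control 832 and hypothyroid 576 (slide 141) and of hypothyroid 891, and the least negative those of control 881 and hypothyroid 723. The group means were -0.52 ± 0.22 and -0.58 ± 0.24 (SD, n = 5 each), a difference of -0.06 that is smaller than the spread within either group. It is described without a test, as a score over chosen genes.

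Among 14438 other named genes, those most like the contrast over the 10 arrays, on values centred on the group means, were Prrt1 (r = 0.955), Dcp1b (0.943), Arhgap33 (0.939), Crip3 (0.937) and Ufl1 (0.935). Those most opposite were H1f6 (r = -0.948), Kat6b (-0.908), Psmb7 (-0.903), D1Pas1 (-0.901) and Mis12 (-0.901). None of these 10 is a gene of the clock lists, and they are the extremes of a ranking over few arrays, given without a test. Of the wider clock genes named below, Bhlhe40 was the highest in this ranking (r = 0.812, percentile 99.6). Ciart came next (0.501), and Cry2 was the lowest (-0.114).

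Across the 10 arrays Arntl and Cry1 of the night group ran against Nr1d1 and Dbp of the day group in the brightest probes. Clock, Tef and the Per genes did not follow their groups. Per2 and Per3 had positive r with Arntl (0.233 and 0.463) and Cry1 (0.407 and 0.414) and negative r with Nr1d1 (-0.401 and -0.188). Per1 had r = -0.0939 with Arntl, 0.00188 with Cry1 and 0.144 with Nr1d1. Arntl correlated with Nr1d1 at r = -0.884 (permutation test p = 0.00053, adjusted p = 0.0238 over 45 pairs; Spearman rho = -0.758, adjusted p = 0.138). Livers with more Arntl had less Nr1d1, from control 616 at one end to hypothyroid 891 at the other. Arntl and Cry1 varied together (r = 0.827, adjusted p = 0.0366; rho = 0.830, adjusted p = 0.126), and Cry1 ran against Nr1d1 (r = -0.841, adjusted p = 0.0331; rho = -0.758, adjusted p = 0.138). The fourth pair past the adjusted threshold was Clock with Tef (r = -0.913, adjusted p = 0.0366; rho = -0.818, adjusted p = 0.126). Clock also ran against Arntl (r = -0.645, adjusted p = 0.292) and Tef with it (r = 0.614, adjusted p = 0.299), and without control 616 these were 0.105 and -0.169. No pair passed by Spearman's rho. In all, 9 of the 45 pairs had an unadjusted permutation p below 0.05 by Pearson's r, 19 were positive and 26 negative.

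**Figure D3:**
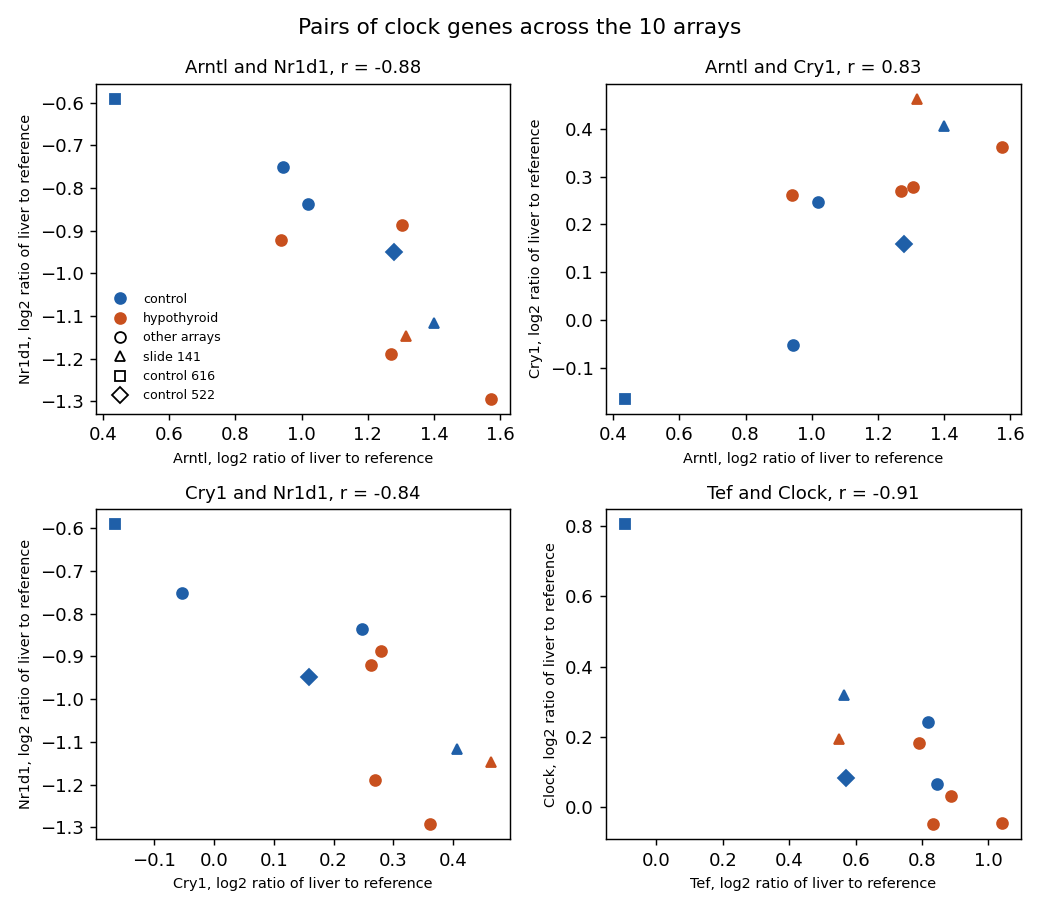
Log2 ratio of liver to reference RNA of one clock gene against another over the 10 arrays, control in blue and hypothyroid in orange. Arntl and Nr1d1 (r = -0.884) have r = -0.820 without control 616 (square), and Clock and Tef (r = -0.913), where that array lies far from the rest, have r = -0.648 without it.

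These pairs differ in how far they depend on single arrays. Without the 2 arrays farthest from the median of Arntl (control 616 and hypothyroid 723), Arntl and Nr1d1 still had r = -0.855, and without control 616 and slide 141 together r = -0.803. Clock and Tef had r = -0.648 without control 616, -0.920 without slide 141 and -0.398 without both, and r = -0.530 without the 2 arrays farthest from the median of Clock (controls 832 and 616). Arntl and Cry1 had r = 0.637 without control 616 and 0.597 without both, and Cry1 and Nr1d1 had r = -0.731 and -0.686. However, with control 616 left out, with slide 141 left out, with values centred on their group means, or with each array scaled to a common spread, 0 of the 45 pairs had an adjusted p below 0.05. Within groups, by centring, Arntl and Nr1d1 had r = -0.861 (permutation p = 0.00348, adjusted p = 0.157). The normalization mattered most, since with arrays centred on their median in place of loess Arntl and Nr1d1 turned to r = 0.566. With that centring Clock and Tef turned to r = 0.747 and Cry1 and Nr1d1 went to 0.0578, while Arntl and Cry1 had 0.812.

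Probe choice mattered as well. The other Nr1d1 probes correlated with Arntl at r = -0.124 and -0.180 only (adjusted p = 0.842 and 0.804 over 17 relations), and the dimmer Cry1 probe at r = 0.622 (adjusted p = 0.161). Dbp, which has 1 probe, ran with Nr1d1 (r = 0.718) and Nr1d2 (r = 0.724) and against Arntl (r = -0.722), each with an adjusted p of 0.110. The 3 Per genes correlated with Arntl at r = -0.0939 (Per1), 0.233 (Per2) and 0.463 (Per3). A common compression of all ratios moved with some genes, as the spread of each array's log2 ratios correlated with Arntl at r = 0.652, with Tef at 0.738 and with Clock at -0.719, and these became 0.0765, 0.146 and -0.0508 without control 616.

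**Figure D4:**
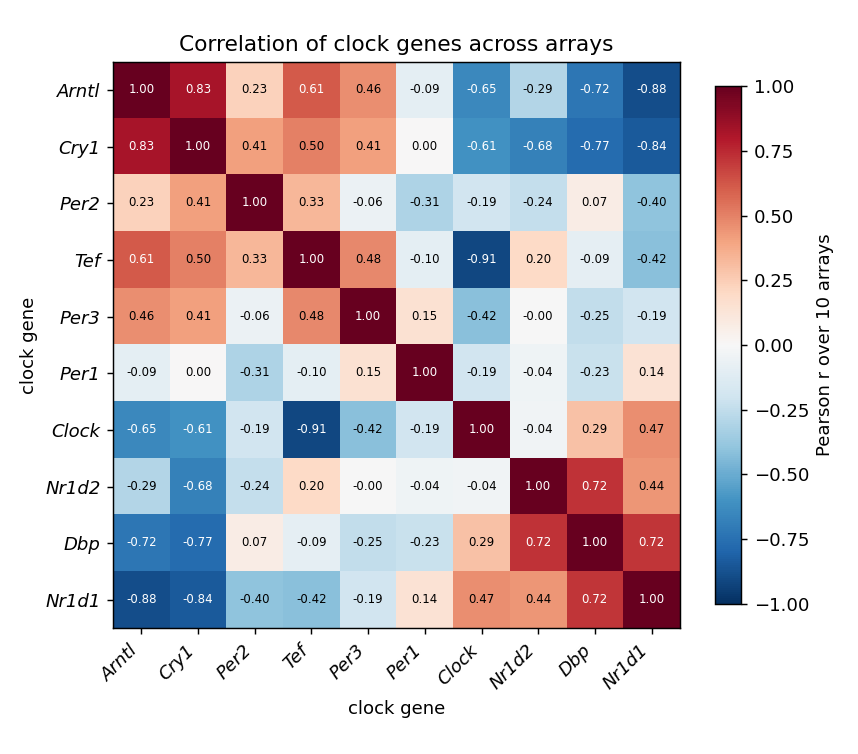
Pearson r over 10 arrays for every pair of the 10 clock genes (both axes list the genes; red positive, blue negative). Arntl and Cry1 are opposite in sign to Nr1d1 and Dbp, with r between -0.884 and -0.722, and the Per genes lie outside this block.

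Single livers also differed in how far their clock genes lay from the mean over all 10 arrays of both groups. The root mean square deviation over the 10 genes was 0.45 in control 616, 0.37 in control 522, 0.33 in hypothyroid 576 and 0.31 in hypothyroid 891, and it was lowest in hypothyroid 626 (0.13). Over all genes tested it was 0.56 in control 616 but 0.24, 0.20 and 0.18 in the other 3. Control 616 was thus far from the mean of the arrays over all genes. The clock genes also lay farther from the mean of the arrays than all genes did in control 881 (0.25 against 0.18) and hypothyroid 723 (0.23 against 0.17). They did not in the remaining 4 livers.

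Of the wider clock, 22 of 24 listed genes were tested and 0 passed an adjusted p of 0.05. At an unadjusted p below 0.05, 1 was higher in hypothyroid liver (Rora, chosen after its value was seen) and 2 were lower (Ciart and Usp2), where 3.34% of all probes were higher and 4.08% lower. Of these, Rora, a nuclear receptor that activates Arntl through the ROR element, was higher by 0.52 (SE 0.17, limma adjusted p = 0.524). Ciart, a repressor of ARNTL and CLOCK, had a change of -0.44 (SE 0.15, adjusted p = 0.560) and Usp2, a deubiquitinase driven by the clock, of -0.43 (SE 0.17, adjusted p = 0.623). Without control 616 the changes of Rora, Ciart and Usp2 were 0.37, -0.31 and -0.50.

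Ciart read -0.83, -1.30, -0.82, -0.37 and -1.15 in control and -1.45, -1.40, -1.35, -1.17 and -1.31 in hypothyroid liver, so that control 832 lay within the hypothyroid range and control 391 just above it. Across arrays Ciart ran against Arntl (r = -0.837, adjusted p = 0.0584 over 17 relations) and Cry2 ran with it (r = 0.823, adjusted p = 0.0584). Without control 616 these were r = -0.601 and 0.535. Spearman's rho over all 10 arrays was -0.758 and 0.661 (adjusted p = 0.129 and 0.207). Bhlhe40 ran against Arntl at r = -0.615 (adjusted p = 0.161), and at -0.858 without control 616. Bhlhe41 did so at r = -0.724 (adjusted p = 0.150), and at -0.218 without control 616. The remaining genes of the rule differed less between groups. Npas2, which can stand in for Clock, had a change of 0.00 (SE 0.06) near its background, Cry2 of 0.19, Nfil3 (a repressor at D-boxes) of 0.06, Hlf (a relative of Dbp) of -0.04 and Bhlhe40 and Bhlhe41 (repressors at E-boxes) of -0.16 and -0.18, and none had an unadjusted p below 0.05.

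Of 19 liver genes that follow the clock or feeding, 4 were lower and 0 higher in hypothyroid liver at an unadjusted p below 0.05 (4.08% and 3.34% of all probes), and 0 passed the adjusted threshold. The groups did not overlap for 4 of them (2.07% of all probes), among which Elovl3 was lower and G6pc and Gys2 were higher (the latter 2 named after their values were seen). Elovl3, a fatty acid elongase, had a change of -0.43 (SE 0.13, adjusted p = 0.469) and Klf10, a transcription factor of the Krüppel family, of -0.44 (SE 0.17, adjusted p = 0.629). The changes of Elovl3 and Klf10 were -0.30 and -0.31 without control 522, and -0.48 and -0.49 without control 616. Elovl3 was dim, and the scanner software marked it well above background on 5 control but only 3 hypothyroid arrays. The cell cycle inhibitor Cdkn1a had a change of -0.82 (SE 0.34, adjusted p = 0.650) and was also named after its value was seen; without control 522 it was -0.52, and without control 616 the changes of G6pc and Gys2 were 0.18 and 0.07. Of 11 glucocorticoid response genes 1 was higher (Tat, tyrosine aminotransferase, by 0.61, SE 0.21, adjusted p = 0.599, with control 522 dropped as an outlier spot), and Angptl4 and Pdk4 gave -0.72 and 0.19. Without control 616 the change of Tat was 0.34, and without control 522 that of Angptl4 was -0.39. Of 9 temperature response genes 1 was higher (Cirbp, a cold-induced RNA-binding protein, by 0.25, SE 0.09, adjusted p = 0.621) and 2 heat-shock genes were lower (Hspa1b with -0.25, adjusted p = 0.557, and Hspa1a with -0.36, adjusted p = 0.562). Of these 9 genes 8 had a negative change, Rbm3 among them (-0.09, named after its value was seen). Control 616 held the highest value of 8 of these 9 genes, where it held the highest of 34.7% of all genes. Without control 616 the changes of Cirbp, Hspa1b and Hspa1a were 0.24, -0.22 and -0.25.

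Control 522, which had the highest Per1 of all livers and was the lowest on the brighter and the highest on the dimmer Per2 probe, stood apart in these output genes. It held the highest value of 11 of the 19 output genes (57.9%) and of 5 of the 10 glucocorticoid response genes read on all arrays, and of 7.39% of all genes. Lpin1, a phosphatidate phosphatase induced by fasting and glucocorticoids, was 3.75 in this liver and between -0.53 and 1.1 in the other 9. Rgs16 was 2.08 against -0.76 to 0.17, and Fkbp5, a sensitive glucocorticoid target, 2.33 against 0.25 to 1.16 (the 3 genes were chosen after their values were seen). Of the 10 clock genes 1 was highest and 1 lowest in it. Their root mean square deviation in this liver, given above, was 0.37 against 0.24 over all genes.

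**Figure D5:**
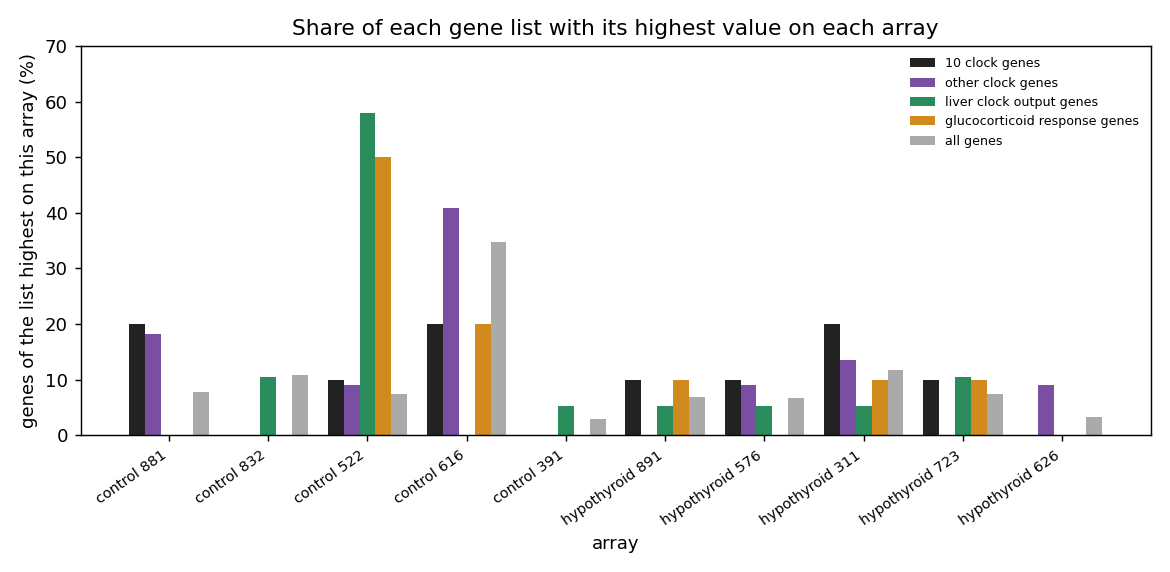
Percent of the genes of each list (vertical axis) that have their highest log2 ratio on a given array (horizontal axis), for the 10 clock genes, 3 lists of related genes and all genes. Control 522 holds 57.9% of the liver clock output genes and control 616 holds 34.7% of all genes.

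Markers of other tissue moved with some of these arrays. The mean log2 ratio of the 8 pancreatic acinar markers tested was 3.73, 3.86 and 2.25 in the controls 832, 522 and 616, and between 0.73 and 0.87 in the other 7 livers. The 6 hepatocyte markers were 2.59 in control 616, between 3.82 and 4.29 in the other controls and between 4.02 and 4.54 in hypothyroid liver. All 6 had a positive change (median 0.63), 2 of them with an unadjusted limma p below 0.05, where 3.34% of all probes were higher. Control 616 enters these changes, and without it the change of Tat, given above, was 0.34 in place of 0.61. Skeletal muscle markers (7 tested) were between -1.03 and -0.39 in control and between -1.12 and -0.96 in hypothyroid liver. Erythroid, macrophage and endothelial markers (4, 5 and 6 tested) had overlapping ranges in the groups, from 1.06 to 2.02, 2.95 to 4.26 and 2.38 to 3.05 in control and from 1.46 to 1.86, 3.85 to 4.10 and 2.68 to 2.88 in hypothyroid liver. The part of this other RNA in the clock gene values was not tested, and in whole liver fewer cells of a type and less RNA per cell cannot be told apart.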

How the data were processed

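The arrays of 5 control and 5 hypothyroid livers were used, with groups and animals as the labels name them. For every spot the authors deposited median intensities of both channels from Agilent Feature Extraction 10.1.1.1 (version per the submitters' processing notes), which were not normalized, together with processed intensities and their log10 ratio as computed by that software. Control and outlier spots were left out. Median intensities were corrected with normexp (offset 50), normalized by loess (span 0.2) and expressed as log2 of liver over reference. The background limit of an array was 3 trimmed SDs over the 5% trimmed mean of its 153 negative spots, and probes above it in at least 4 of 5 arrays of a group were tested with limma 3.58.1 in R 4.3.3, two-sided, at an adjusted p of 0.05. The methods' MAANOVA test was not run, as that library was not at hand. The programs were tested on simulated data.

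Of 41174 probes, 23374 were named by accession in RefSeq (GRCm38.p6), since the files hold no gene names. Slide 141 had its channels exchanged against its labels. A gene was read from its brightest probe. Correlations used Python 3.11.15 with 100000 permutations, two-sided, with Benjamini-Hochberg adjustment over the pairs. Precision is limited by the number of arrays.

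The 10 genes, the gene lists and the contrast were chosen with earlier results of these data known. Genes named were all 10 with every probe, 9 other clock genes, the 3 genes of smallest p in each further list (for the cell type markers only their mean level is given), the 5 most and 5 least like the contrast, and Dio1, Thrsp and Me1. Of the genes under this rule, 2 are not reported here. Alternatives were to keep the dyes as labelled or drop slide 141, to skip the background correction or take the processed signals, to centre arrays on their median or widen the loess span to 0.3, to apply no filter or require all 10 arrays, to block by slide (fixed or random), to weight arrays, to average the probes of a gene, and to leave out each array. Added after seeing the data were dye orientation as a covariate, leaving out control 616 with slide 141, scaling to a common spread, centring on group and dye orientation, correlations without control 522, and changes of listed genes without control 522 or 616. The TLDA files, which hold miRNAs, were not used here.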

Additional observations from a re-analysis of the deposited data

Results flagged for a closer look

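Of 38 groups of 5 values tested (each clock probe in each group, and the contrast), 1 (2.63%) had an array far from the others, where chance gives about 1 in 20. This was Nr1d2 in hypothyroid liver, where hypothyroid 576 was the lowest at -0.39 and its gap to the nearest of the other 4 was 0.735 of the range of the group. This array is on slide 141, whose control was the lowest control for the same probe.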

How the results depend on the processing

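The number of clock genes past the adjusted threshold was 0 under all 25 alternatives. The changes of Per2, Arntl, Clock, Cry1, Tef and Nr1d1 by their brightest probes kept their direction in all of them. With median centring, though, Clock shrank to -0.011 and Nr1d1 to -0.056. However, the other probes of Per2 and Tef, and the next brightest of Nr1d1 (0.03), have the opposite sign. Per1 turned to 0.15 with median centring and to 0.13 and 0.10 without control 522 and hypothyroid 891. Per3 turned to -0.0279 with array weights, to -0.0415 without control 616, -0.0413 without hypothyroid 311 and -0.00165 without hypothyroid 626, and to -0.00923 without control 616 and slide 141. Leaving out single arrays gave -0.197 to 0.132 for Per1 and -0.0415 to 0.0798 for Per3. Dbp turned to 0.0103 with the dyes as labelled and to 0.0735 with median centring, and Nr1d2 to 0.0656 with median centring. Over all probes tested the median change was -0.01, and 0.09 with median centring.

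The count of probes past the threshold, 2, became 0 with the dyes as labelled, without slide 141 and with slide as a fixed block, 1 with the processed signals, with median centring and without control 616 and slide 141, 4 after scaling to a common spread, 14 with slide as a random block and 49 with array weights. It was 1 to 30 when single arrays were left out, 30 without control 616. Clock genes with an unadjusted p below 0.05 numbered 0 with the dyes as labelled and with probes averaged, 2 with median centring and with array weights, 3 without slide 141, with slide as a random block and with dye orientation as a covariate, and 0 to 3 when single arrays were left out. The contrast differed between groups by -0.14 to 0.02 over all alternatives, within its spread. The 4 pairs of correlated genes became 0 with centring on group means, with centring on group and dye orientation, without slide 141 and after scaling. The count was 14 with the dyes as labelled, 32 with median centring, and 0 to 6 without control 616 or 522. With median centring Arntl and Nr1d1, and also Clock and Tef, turned from a negative to a positive r. The causes were not tested.

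No paired analysis was possible because the array animals carry no replicate numbers shared between the groups. The pairing by slide, on the 4 slides that hold both, is given by the block for the slide and the within-slide differences. Each slide was scanned on its own day, so a block for the day is the block for the slide and was not run separately. Correlations of values centred within the 4 shared slides were not run, since 4 differences are fewer than the 6 independent samples required. Signal over background limits the dimmer probes of Cry1 and Clock and those of Npas2 and Elovl3.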
